A study of Mus musculus with 8 samples.

Results

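The Mir302/Mir367 cluster is a row of 5 miRNA genes that lie together on mouse chromosome 3 and are read out in every library here through the small RNAs cut from them. The members Mir302a, Mir302b, Mir302c, Mir302d and Mir367 were chosen by name and not by a cut on their values, though earlier results of these data were known. They are 5 of the 2201 miRNA genes of GENCODE M21, of which 605 had reads. A read was assigned to a member when its whole sequence, of 20 to 24 nt, was found on the sense strand of that gene's hairpin transcript. In GRCm38 the hairpins occupy the plus strand of chromosome 3 in the order Mir302b (127545228 to 127545301), Mir302c (127545363 to 127545430), Mir302a (127545496 to 127545564), Mir302d (127545624 to 127545689) and Mir367 (127545733 to 127545807). These 580 bases are intronic. They fall within the 1547-bp intron between exons 8 and 9 of a coding transcript of Larp7, and Larp7, which encodes an RNA-binding protein, is transcribed from the opposite strand.

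A miRNA hairpin can yield a mature RNA from each of its arms, called 5p and 3p, and bases 2 to 8 of the mature RNA, the seed, pair with target mRNAs. The miR-302 family is known as an embryonic family of pluripotent cells, with its highest levels around the epiblast and primed state. The miR-290 to miR-295 family carries largely the same seed and is known from naive pluripotent cells and early germ cells. Both families promote the cell cycle of pluripotent cells.

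The study compared male mouse Primordial Germ Cells (mPGCs), the fetal precursors of sperm, with mPGC-Like Cells (mPGCLCs) made in culture. There were 4 groups with 2 small RNA libraries each, 8 in all. The mPGCs were taken from male genital ridges of E12.5, E13.5 or E15.5 embryos (E for embryonic day) and carried the GOF18 transgene, in which a Pou5f1 regulatory region drives EGFP. Each mPGC replicate was pooled from embryos of another litter. The strain is C57BL/6J in the labels and FVB/C57BL/6J in the methods, and the cells were isolated by SSEA1 and CD61 according to the former and by EGFP according to the latter. The mPGCLCs came from Day 6 embryoid bodies of SGET, a single male embryonic stem cell line of B6CBA/129 background, and were sorted as Stella-GFP positive and Esg1-tdTomato negative. Strain, culture and sorting therefore differ together between SGET mPGCLCs and mPGCs, and their effects cannot be told apart. The sources used here do not say whether both SGET libraries came from separate differentiations, so the spread between them may be technical. In such bulk samples, fewer cells that make a miRNA and less of it per cell cannot be told apart.

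Libraries held 7447873 to 26552524 mapping reads. The reads matching any miRNA were 12.8% and 20.6% of mapping reads (E12.5), 14.6% and 21.3% (E13.5), 2.22% and 1.89% (E15.5) and 16.0% and 24.8% (SGET mPGCLCs). With so few miRNA reads among the reads at E15.5, levels at that stage depend on the denominator, and both are given below for the cluster and its main arms. A count of 0 still allows 3 counts, or 0.113 to 0.403 reads per 1000000 mapping reads (RPM) depending on the library.

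The mature sequences below, from RefSeq on GRCm38.p6, show what the reads of the cluster are and why its members are usually treated as related; the capitals mark the seed. RefSeq held 9 of the 10 member arms.
miR-302b-3p: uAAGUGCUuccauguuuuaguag
miR-302d-3p: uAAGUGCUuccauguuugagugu
miR-302c-3p: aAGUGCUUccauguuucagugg
miR-302a-5p: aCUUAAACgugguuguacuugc
miR-302b-5p: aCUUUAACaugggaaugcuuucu
miR-302c-5p: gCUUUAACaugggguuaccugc
miR-302d-5p: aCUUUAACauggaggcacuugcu
miR-367-3p: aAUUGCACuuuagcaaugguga
The 2 arms miR-302b-3p and miR-302d-3p share their first 17 bases and the seed AAGUGCU. The annotated miR-302c-3p begins 1 base later, runs alike for 16 bases, and so has the seed AGUGCUU. The 5p arms of Mir302b, Mir302c and Mir302d share the seed CUUUAAC, while miR-367-3p is unrelated to the others and has the seed AUUGCAC. Outside the cluster, 3 RefSeq miRNAs have the seed AAGUGCU and 5 have the seed of miR-367-3p, shown here by 1 example each.
miR-294-3p: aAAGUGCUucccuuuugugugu
miR-92a-3p: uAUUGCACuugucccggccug
From the second base on, miR-294-3p and miR-302b-3p are alike for 10 bases.

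The cluster was most abundant in SGET mPGCLCs by either denominator. Its summed reads numbered 533 and 1481 (E12.5), 328 and 720 (E13.5), 281 and 1263 (E15.5) and 9201 and 11581 (SGET mPGCLCs). At E12.5 this was 71.6 RPM in replicate 1 (65.7 to 77.9, 95% Wilson interval) and 109 (103 to 114) in replicate 2. At E13.5 the levels were 27.2 (24.4 to 30.3) and 36.5 (33.9 to 39.2), and at E15.5 they were 20.7 (18.4 to 23.2) and 47.6 (45.0 to 50.3). Both SGET libraries, at 901 (883 to 920) and 1216 (1194 to 1238), were above all 6 mPGC libraries. Ordered by mean, SGET mPGCLCs were followed by E12.5, and the libraries of E15.5 and E13.5 overlapped.

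**Figure D1:**
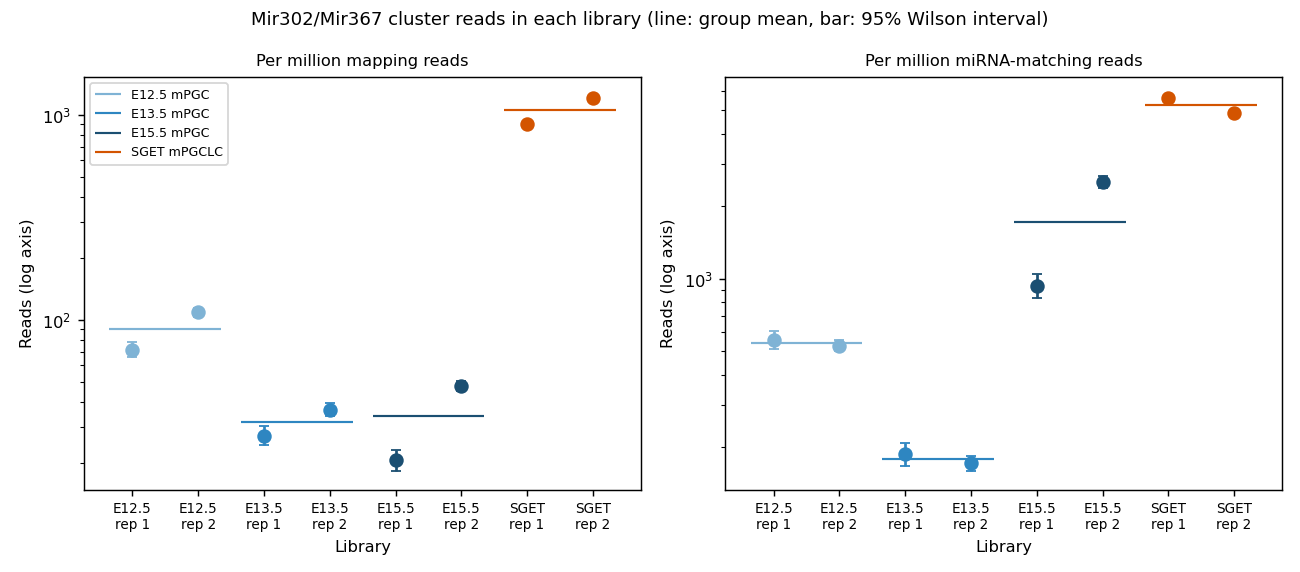
Summed reads of the Mir302/Mir367 cluster in each of the 8 libraries, in RPM of mapping reads (left) and of miRNA-matching reads (right), both on log axes; points are libraries, bars are 95% Wilson intervals and lines are group means. SGET mPGCLCs are highest in both panels, at 901 and 1216 on the left and 5629 and 4897 on the right, while the E15.5 libraries overlap E13.5 on the left and lie above both earlier stages on the right.

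Per 1000000 miRNA-matching reads the cluster stood at 558 and 528 (E12.5), 187 and 172 (E13.5), 932 and 2517 (E15.5) and 5629 and 4897 (SGET mPGCLCs). On this scale no groups overlapped, and E15.5 came second in place of E12.5. Even in SGET mPGCLCs the cluster was a small part of the miRNA reads, at 0.563% and 0.490% in replicates 1 and 2.

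Between E12.5 and E13.5 the ratio of the mean cluster levels was 0.353 ± 0.126 (propagated SD, n = 2 against 2) per mapping read and 0.33 ± 0.0236 per miRNA-matching read, with both E13.5 libraries below both E12.5 libraries. A two-sided exact permutation test gave p = 0.33, the smallest that 2 libraries against 2 allow. Over the same interval the share of miRNA reads among mapping reads moved by a factor of 1.07 ± 0.452, less than the spread between replicates. From E13.5 to E15.5 the ratio of cluster levels was 1.07 ± 0.636 per mapping read and 9.62 ± 6.28 per miRNA-matching read, while the miRNA share of mapping reads at E15.5 was 0.115 ± 0.0329 times that at E13.5. Against E12.5, the E15.5 level was 0.378 ± 0.238-fold per mapping read and 3.17 ± 2.07-fold per miRNA-matching read, so the direction of this comparison turned with the denominator.

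SGET mPGCLCs exceeded E12.5 mPGCs 11.7 ± 4.22-fold per mapping read and 9.69 ± 1.03-fold per miRNA-matching read. Against E13.5 the ratios were 33.2 ± 9.76 and 29.4 ± 3.38. Each of these 4 ratios had both SGET libraries above both mPGC libraries, with an exact permutation p of 0.33 (two-sided), again the lowest value this design can give. The 2 comparisons share the SGET libraries.

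Among the 3p arms, miR-302b-3p was the main product of the cluster in 7 of the 8 libraries. It had 227 and 702 counts (E12.5), 220 and 330 (E13.5), 209 and 627 (E15.5) and 6342 and 6001 (SGET mPGCLCs). In RPM that was 30.5 and 51.6, 18.3 and 16.7, 15.4 and 23.6, and 621 and 630. Per mapping read, the SGET libraries were close to each other and an order of magnitude above every mPGC library. E13.5 and E15.5 overlapped on this scale. In RPM of miRNA-matching reads, miR-302b-3p was at 238 and 250 (E12.5), 125 and 78.7 (E13.5), 693 and 1249 (E15.5) and 3880 and 2537 (SGET mPGCLCs). There the SGET libraries were also highest, but by less than an order of magnitude over E15.5. Both E15.5 libraries were then above both E13.5 libraries. By its mean level miR-302b-3p ranked 51 among the 434 arms with reads in SGET mPGCLCs and 178 among 601 at E12.5.

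The second product, miR-302d-3p, had 286 and 466 counts (E12.5), 83 and 134 (E13.5), 51 and 315 (E15.5) and 1642 and 3425 (SGET mPGCLCs). Its levels were 38.4 and 34.2 RPM at E12.5 but 6.89 and 6.79 at E13.5, groups that did not overlap. At E15.5 they were 3.75 and 11.9, on either side of both E13.5 libraries, and in SGET mPGCLCs 161 and 360. In RPM of miRNA-matching reads, miR-302d-3p was at 300 and 166 (E12.5), 47.3 and 31.9 (E13.5), 169 and 628 (E15.5) and 1005 and 1448 (SGET mPGCLCs). On that scale both E15.5 libraries were above both E13.5 libraries and overlapped E12.5. E12.5 replicate 1 was the library in which miR-302d-3p outnumbered miR-302b-3p. Mir302d as a whole gave 43.8% ± 15.6 (SD, n = 2) of the cluster's reads at E12.5 and 24.4% ± 9.12 in SGET mPGCLCs, and Mir302b gave 45.2% ± 3.64 and 60.4% ± 12.1.

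Reads of miR-302a-3p were fewer, with 13 and 140 counts (E12.5), 17 and 130 (E13.5), 13 and 60 (E15.5) and 334 and 702 (SGET mPGCLCs). The mPGC groups overlapped one another and all lay below SGET mPGCLCs. At each mPGC stage replicate 2 held more of them than replicate 1.

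Mir302c and Mir367 were near the limit of detection in most libraries. The counts of miR-302c-3p were 1 and 0 (E12.5), 0 and 0 (E13.5), 3 and 3 (E15.5) and 4 and 374 (SGET mPGCLCs). All 374 reads of SGET replicate 2 had 1 sequence, of which replicate 1 held 2, so this arm rests on a single library. Reads of miR-367-3p numbered 0 and 67 (E12.5), 1 and 2 (E13.5), and 2 in each E15.5 and SGET library. Those 67 reads were again 1 sequence in 1 library, starting 1 base after the RefSeq start. With the SGET libraries at 0.196 and 0.210 RPM, below the limit of 3 counts, miR-367-3p did not share the high level of miR-302b-3p there.

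**Figure D2:**
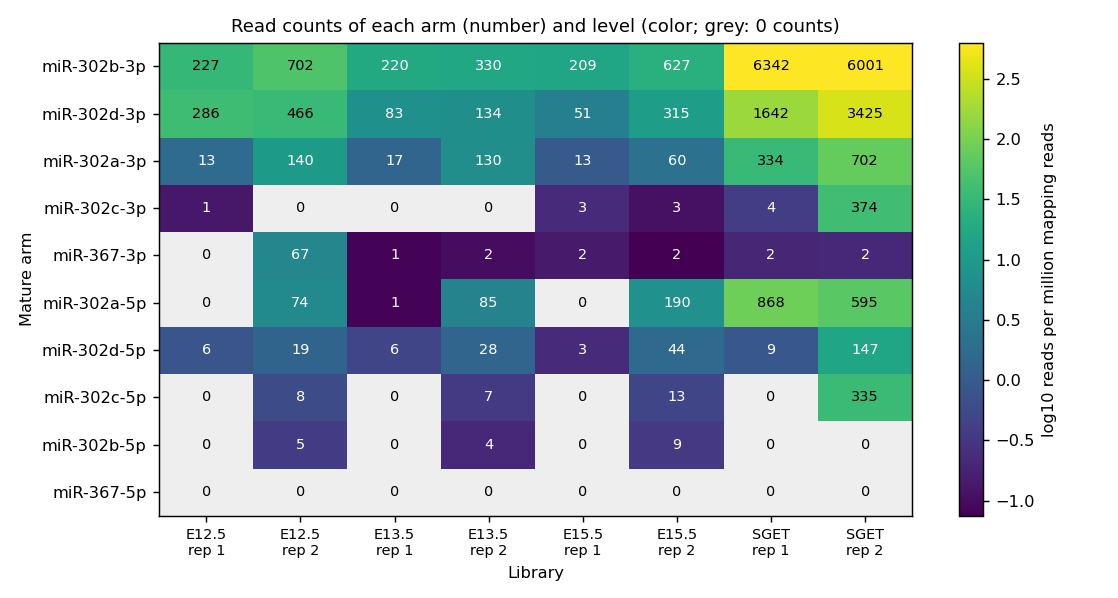
Read counts of the 10 member arms (rows) in the 8 libraries (columns); the number is the count, the color is the log10 of RPM, and grey marks 0 counts. The 3p arms of Mir302b and Mir302d hold most reads everywhere, miR-302c-3p has 374 counts in SGET replicate 2 against 4 in replicate 1, and the 5p arms of Mir302a, Mir302b and Mir302c have reads in replicate 2 and 0 or 1 in replicate 1 of each mPGC stage.

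At the mPGC stages the untailed reads of the 5p arms varied more between replicates than between stages. Counts of miR-302a-5p were 0 and 74 (E12.5), 1 and 85 (E13.5), 0 and 190 (E15.5) and 868 and 595 (SGET mPGCLCs). The 0 at E12.5 replicate 1 is not an absence of this arm, since the library held 51 reads of it that end in an added A or AA and so do not match the hairpin throughout, against 2 tailed reads in replicate 2. Both SGET libraries, at 85.0 and 62.5 RPM, were above the highest mPGC library, at 7.16. As a share of Mir302a reads, the 5p arm made up 72.2% and 45.9% in SGET mPGCLCs, so that in replicate 1 it outnumbered the 3p arm, as it also did at E15.5 replicate 2, with 76.0%. Reads of miR-302d-5p numbered 6 and 19, 6 and 28, 3 and 44, and 9 and 147 in the same order of groups.
The 5p arms of Mir302b and Mir302c were counted 5 and 8 times at E12.5 replicate 2, 4 and 7 times at E13.5 replicate 2, and 9 and 13 times at E15.5 replicate 2, and 0 times in replicate 1 of each stage. In SGET mPGCLCs miR-302c-5p had 0 and 335 counts, and miR-302b-5p had 0 in both. The miR-367-5p arm had 0 counts in all 8 libraries. Replicate 2 was also the more deeply sequenced library of each mPGC stage. Scaled to mapping reads, miR-302a-5p was at 0 and 7.16 RPM at E15.5, and the part of depth was not tested.
Over the whole cluster, 5p reads were 1.13% and 7.16% (E12.5), 2.13% and 17.2% (E13.5), 1.07% and 20.3% (E15.5) and 9.53% and 9.30% (SGET mPGCLCs).

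To test single arms, 488 miRNA arms were fitted in one model of all 8 libraries with edgeR's quasi-likelihood test and total mapping reads as library size. Of the 9 member arms with reads, 5 passed the filter on low counts, namely miR-302a-3p, miR-302a-5p, miR-302b-3p, miR-302d-3p and miR-302d-5p. In the comparison of SGET mPGCLCs with E13.5, miR-302b-3p was higher by a log2 fold change of 5.16 (SE 1.23, adjusted p = 0.0096 in edgeR). It was the 1 member called there, where 2.05% of all arms were called higher, 4.3% lower and 6.35% in either direction. The log2 fold change of miR-302d-3p was 5.25 (SE 1.71) and did not pass (adjusted p = 0.074 in edgeR).
The call on miR-302b-3p rests on the few libraries. Its adjusted p in edgeR was 0.16 without E13.5 replicate 1, 0.12 without E13.5 replicate 2 and 0.070 without SGET replicate 1, with log2 fold changes from 5.10 to 5.22 over all left-out libraries. Without either E15.5 library, miR-302d-3p was also called, with an adjusted p of 0.017 without replicate 1 and 0.016 without replicate 2 in edgeR, beside 2.92% and 2.87% of all arms called higher. Over the 15 alternatives the adjusted p of miR-302b-3p ran from 1.4e-07 to 0.16, and 12 were under 0.05.

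Against E12.5, 0 members passed in edgeR, where 1.84% of all arms were called higher, 3.28% lower and 5.12% in either direction, and 1 member, miR-302b-3p, had an unadjusted p under 0.05. Its log2 fold change was 3.93 (SE 1.16, adjusted p = 0.054 in edgeR). This p lies at the threshold, since 8 of the 15 alternatives gave an adjusted p under 0.05, over a range of 1.3e-04 to 0.56. With miRNA-matching reads as library size it was 0.026 in edgeR, and 1 of 8 tested members was called, beside 2.74% of 511 arms called higher and 7.83% lower. Without E15.5 replicate 1 it was 0.0097 and without E15.5 replicate 2 it was 0.010. The log2 fold change of miR-302d-3p was 2.84 (SE 1.53, adjusted p = 0.35). The log2 fold changes of the 5 tested members had a median of 3.14 against E12.5 and 5.06 against E13.5, beside -0.21 and -0.28 over all 488 arms, and all 5 were above 0 in both. Per mapping read, both SGET libraries were above all 6 mPGC libraries for 4 of the 5 tested members and for 19.7% of all arms. For 1 of these 4, miR-302a-5p, this did not hold per miRNA-matching read. Against E12.5 and E13.5 taken singly, these 4 also had both SGET libraries higher, as had 22.5% and 21.7% of all arms, and 0 members had both lower, as had 26.2% and 25.4%. The exception was miR-302d-5p, with 9 counts in SGET replicate 1.

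Between E12.5 and E13.5 edgeR called 0 of the 5 tested members and 0% of all arms, and 0 members and 5 arms had an unadjusted p under 0.05. DESeq2 also called 0 members, beside 1.43% of 491 arms called higher and 0.407% lower. The largest member difference was a log2 fold change of -2.41 for miR-302d-3p (SE 1.5, adjusted p = 1 in edgeR), and that of miR-302b-3p was -1.23 (SE 1.05). Both E13.5 libraries lay below both E12.5 libraries for these 2 of the 5 tested members, as they did for 11.5% of all arms, and above them for 0 members and 17.6% of all arms.

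From E13.5 to E15.5, 17.6% of all arms were called in edgeR, 0 higher and 86 lower, with a median log2 fold change of -3.54. Among the 5 tested members 0 were called, 0 had an unadjusted p under 0.05, and the median was 0.16. Both E15.5 libraries were below both E13.5 libraries for 0 of the 5 tested members and for 50.4% of all arms, and above them for 0 members and 0.615% of all arms. The log2 fold change was 0.16 (SE 1.03) for miR-302b-3p and 0.19 (SE 1.43) for miR-302d-3p. With miRNA-matching reads as library size the median of all arms moved to -0.34, 2 arms were called higher and 0 lower, and the members' median was 3.29 with 0 of 8 called. Changing the library size shifts members and other arms alike. DESeq2, with its own size factors, called miR-302b-3p (log2 fold change 3.84, adjusted p = 9.4e-04) and miR-302d-3p (3.99, adjusted p = 0.021) higher, which are 2 of the 5 members with an adjusted p, beside 3.4% of all arms.
From E12.5 to E15.5, 16.6% of all arms were called in edgeR, 1 higher (0.205%) and 80 lower (16.4%), and 0 members, of which 0 had an unadjusted p under 0.05. The median log2 fold change was -1.07 for the members and -3.38 for all arms. Both E15.5 libraries were below both E12.5 libraries for 2 of the 5 tested members and for 58.2% of all arms, and above them for 0 members and 2.66% of all arms. With miRNA-matching reads as library size, where 8 members and 511 arms were tested, the medians were 2.44 and -0.30. On that scale 20 arms were called higher (3.91%) and 11 lower (2.15%), and 0 of the 8 members.

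**Figure D3:**
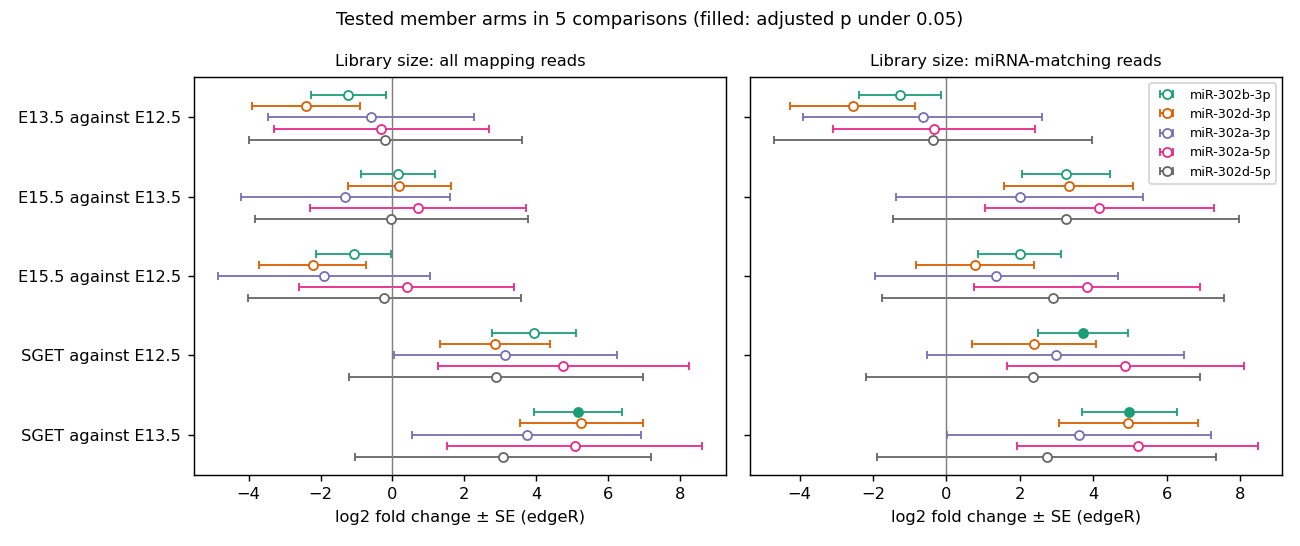
Log2 fold changes of the 5 tested member arms in the 5 comparisons, with bars of 1 SE from edgeR and filled points at an adjusted p under 0.05, for library sizes of all mapping reads (left) or miRNA-matching reads (right; 3 further arms tested there are not drawn). In both panels the SGET comparisons lie to the right of 0, with miR-302b-3p at 5.16 and 4.98 against E13.5, while the E15.5 comparisons shift to the right of 0 in the right panel, where miR-302b-3p against E12.5 is 1.99 in place of -1.07.

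Reads with the seed AAGUGCU were next counted over all miRNAs, by bases 2 to 8 of each read. These reads were 9437 ± 3400 (SD, n = 2) RPM in SGET mPGCLCs, against 5744 ± 739 (E12.5), 4007 ± 914 (E13.5) and 287 ± 167 (E15.5). Members of the cluster held 1.09% and 1.21% of them (E12.5), 0.749% and 0.614% (E13.5), 4.66% and 20.9% (E15.5) and 10.1% and 8.58% (SGET mPGCLCs). The members' part was thus smallest at E13.5, and the wide E15.5 values covered those of SGET mPGCLCs.
The remaining AAGUGCU reads came mostly from the Mir290 to Mir295 genes. In SGET mPGCLCs miR-294-3p had 4371 and 7052 RPM with this seed, miR-295-3p 1187 and 2572, and miR-291a-3p 725 and 1142, beside 707 and 1016 for the members. At E15.5 miR-294-3p had 248 and 92.5 and the members 18.9 and 35.3.

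**Figure D4:**
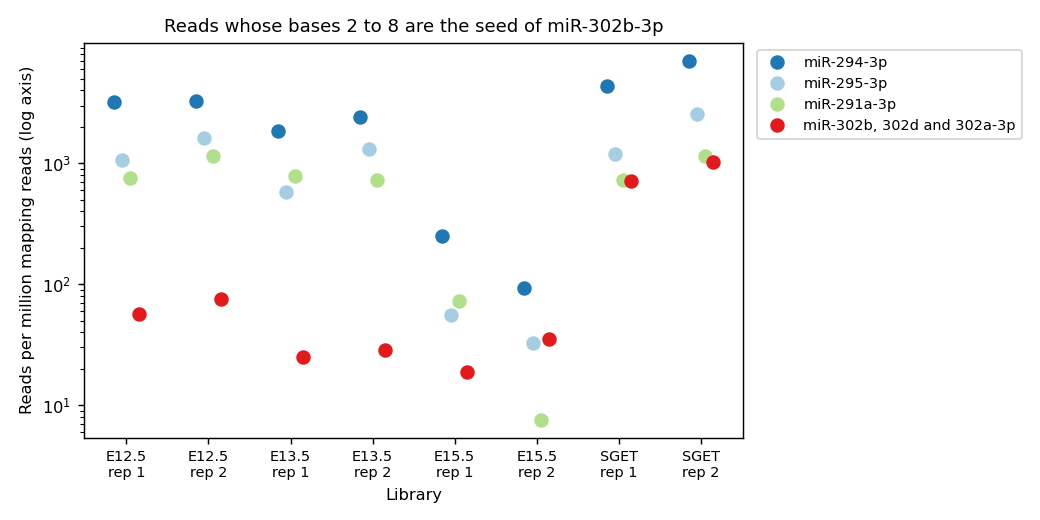
RPM (log axis) in each library whose bases 2 to 8 are the seed of miR-302b-3p, for miR-294-3p, miR-295-3p, miR-291a-3p and the members of the cluster together. The members are lowest in every E12.5 and E13.5 library, at 25.2 to 75.8, and in E15.5 replicate 1, at 18.9. In E15.5 replicate 2 they are at 35.3, above miR-291a-3p at 7.57 and miR-295-3p at 32.5. In SGET mPGCLCs they are at 707 and 1016, below miR-291a-3p at 725 and 1142.

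The 7 genes of the Mir290 to Mir295 cluster summed to 49957 ± 15620 (SD, n = 2) RPM at E12.5. They outnumbered the Mir302/Mir367 cluster 544- and 561-fold (E12.5), 1165- and 1241-fold (E13.5), 153- and 51.1-fold (E15.5) and 64.0- and 75.0-fold (SGET mPGCLCs). Of their 15 tested arms edgeR called 12 lower and 0 higher in each comparison of E15.5 with an earlier stage, where 17.6% (E13.5) and 16.4% (E12.5) of all arms were lower, and 0 in each of the other 3 comparisons. These calls hold on the scale of mapping reads. With miRNA-matching reads as library size, 0 of the 15 were called lower for E15.5 against E13.5 and 6 against E12.5, beside 0% and 2.15% of all arms, and 3 were called higher in SGET mPGCLCs against E13.5, beside 3.52%. Per 1000000 miRNA-matching reads these genes summed to 299842 ± 5266 (SD, n = 2) at E12.5, 215318 ± 3171 at E13.5 and 135619 ± 9786 at E15.5. Per mapping read their median log2 fold change was 0.51 for SGET mPGCLCs against E12.5 and -4.14 for E15.5 against E13.5. Genes of the miR-17 type had 10 tested arms, counted whatever their seed. The seed AAAGUGC of miR-17-5p is offset by 1 base, while miR-17-3p has another seed. Per mapping read 4 of the 10 were lower in each E15.5 comparison, beside 17.6% (E13.5) and 16.4% (E12.5) of all arms. In SGET mPGCLCs against E13.5, 1, Mir20a-5p, was lower, beside 4.3%. On the scale of miRNA-matching reads 0 were lower for E15.5 against E13.5 and 1 against E12.5, and 4 and 3 were lower in SGET mPGCLCs against E12.5 and E13.5, beside 7.83% and 8.81% of all arms. The 13 tested arms of genes with the miR-367-3p seed had 6 lower in each E15.5 comparison, beside 17.6% (E13.5) and 16.4% (E12.5) of all arms. Of these arms 1, Mir92b-3p, was higher in SGET mPGCLCs against E13.5, beside 2.05%. Mir20a-5p and Mir92b-3p are named after their values were seen. With miRNA-matching reads as library size 0 of the 13 were lower for E15.5 against E13.5, beside 0% of all arms. Against E12.5, 1 was lower, beside 2.15%. On that scale 1 was lower in SGET mPGCLCs against E12.5, beside 7.83%. SGET mPGCLCs against E13.5 had 1 higher and 1 lower, beside 3.52% and 8.81%. Per 1000000 miRNA-matching reads these genes summed to 153088 ± 22025 at E13.5 and 152828 ± 21883 at E15.5 (SD, n = 2). The difference was far below the spread. Reads with the seed AUUGCAC were 27866 and 40729 RPM in SGET mPGCLCs, of which miR-367-3p was 0.000703% and 0.000515%.

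Within an arm, the reads began at few positions. For miR-302b-3p, the read of 23 nt at the RefSeq start, tAAGTGCTtccatgttttagtag, was the leading form in 7 of the 8 libraries, and it had 4330 and 3029 counts in SGET mPGCLCs. A shorter form and both main forms of the E12.5 libraries that start 1 base later are shown, because they change the length or the seed in capitals, although forms of 24 nt at the RefSeq start (1021 counts in all libraries), 23 nt at +1 (469) and 22 nt at the RefSeq start (449) were more frequent than the 20-nt form shown (156).
21 nt, RefSeq start: tAAGTGCTtccatgttttagt
22 nt, start +1: aAGTGCTTccatgttttagtag
20 nt, start +1: aAGTGCTTccatgttttagt
Reads starting at +1, which have the seed of miR-302c-3p, were 41.4% and 30.6% of miR-302b-3p (E12.5), 3.64% and 6.36% (E13.5), 2.39% and 6.86% (E15.5) and 14.8% and 7.43% (SGET mPGCLCs). The E12.5 libraries were the highest, but different forms made up their +1 reads. The 22-nt form had 93 and 60 counts there, and the 20-nt form had 0 and 155, with 1 count in the 6 other libraries together. The 21-nt form had 1 and 280 counts at E12.5, 4 to 14 in the later mPGC libraries, and 683 and 1552 in SGET mPGCLCs.
For miR-302d-3p, reads at the RefSeq start were 88.2% to 99.9% of the arm in the 8 libraries. Its 21-nt form had 71 counts at E12.5 replicate 1 and 186 in SGET replicate 1, and 0 or 1 in the other libraries.

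**Figure D5:**
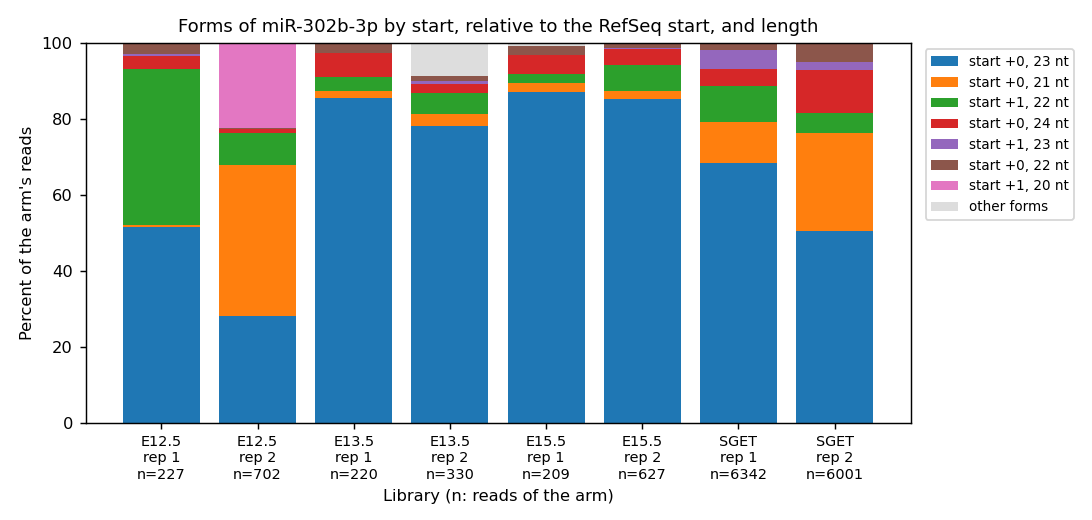
Forms of miR-302b-3p as a percent of the reads of the arm in each library, by start relative to the RefSeq start and by length. The 23-nt form at the RefSeq start leads in 7 of the 8 libraries, and in E12.5 replicate 2 it is second with 196 counts, between a 21-nt form with 280 and a 20-nt form with 155.

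The 5p arms of Mir302a and Mir302c were mostly read from another start than the one in RefSeq. The leading form of miR-302a-5p began 3 bases later, and that of miR-302c-5p began 2 bases later, which gives each another seed, marked again in capitals.
miR-302a-5p, start +3: tAAACGTGgttgtacttgcttt
miR-302a-5p, start +2: tTAAACGTggttgtacttgct
miR-302c-5p, start +2: tTTAACATggggttacctgct
Starts at +3 made up 62.2%, 58.8% and 72.6% of miR-302a-5p in replicate 2 of the 3 mPGC stages in order of age, and 54.6% and 100% in SGET mPGCLCs. The RefSeq start made up 31.1%, 34.1% and 22.6% in the same mPGC libraries and 0% in both SGET libraries. The 21-nt form at +2 had 394 counts in SGET replicate 1 and 0 in each of the other 7 libraries. The form of miR-302c-5p at +2 had 334 of its 346 counts in SGET replicate 2.

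Reads that matched a member over at least 20 nt and then ended in 1 or 2 bases not in the hairpin were counted apart, as tailed reads. They numbered 62 and 43 (E12.5), 29 and 56 (E13.5), 22 and 116 (E15.5) and 63 and 1555 (SGET mPGCLCs). As a percent of tailed and untailed reads this was 2.82% to 10.4% in the mPGC libraries, 0.680% in SGET replicate 1 and 11.8% in SGET replicate 2. Tails of U or UU on miR-302b-3p had 1146 counts (16.0%) in SGET replicate 2 and 26 counts (0.408%) in replicate 1. On miR-302a-3p they had 375 and 1 counts in these libraries. The SGET replicates thus differed more in tails than in the untailed level of miR-302b-3p, and no difference between groups can be read from them.

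Over the 8 libraries, the arms outside the cluster whose log2 levels followed the summed members most closely, among 323 with a mean count of at least 100, were Mir92b-3p (Pearson r = 0.967), Mir434-3p (0.941), Mir370-3p (0.941), Mir382-5p (0.939) and Mir431-5p (0.937). These values describe 8 libraries in which the SGET pair is far from the rest. The level of Mir92b-3p was 998 and 1448 RPM in SGET mPGCLCs and 24 to 244 in the mPGC libraries. Mir92b lies on chromosome 3 at 89227116 to 89227198, away from the cluster, and the other 4 genes lie on chromosome 12 between 109590447 and 109733846. Of the 343 distinct sequences with at least 1000 counts in both SGET libraries, 2 belonged to members, and 1 of the 343 had 0 counts in all 6 mPGC libraries.

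Markers of other cells that a sort could hold were read in the same libraries, and their part in the results above was not tested. Genes of mesenchyme and gonadal soma (6 of 6 with reads) summed to 372 and 423 RPM (E12.5), 429 and 1265 (E13.5), 145 and 279 (E15.5) and 870 and 1657 (SGET mPGCLCs), so that they were also high in SGET mPGCLCs but overlapped E13.5. Of the 9 tested arms of these genes 1, Mir202-3p, was lower in each SGET comparison in edgeR, and 0 were called otherwise. Of all arms 3.28% (E12.5) and 4.3% (E13.5) were lower there. The median log2 fold change of the 9 arms in SGET mPGCLCs was 2.21 against E12.5 and 1.78 against E13.5, so Mir202-3p went the other way. With miRNA-matching reads as library size, 2 of 8 were lower in each SGET comparison, beside 7.83% and 8.81% of all arms. At E15.5 against E12.5, 1 was higher on that scale, beside 3.91%. Mir202, known from gonads, had 652 to 7147 counts of its 3p arm in the mPGC libraries and 0 in both SGET libraries. Its 5p arm had 36 to 1336 in the mPGC libraries and also 0 in both SGET libraries. The sum of 1265 RPM in E13.5 replicate 2 includes 362 of Mir202-3p and 67.7 of Mir202-5p. Genes of blood and vessel (6 of 7 with reads) summed to 37.3 and 68.8 (E12.5), 36.6 and 87.5 (E13.5), 9.999 and 2.98 (E15.5) and 81.1 and 27.3 (SGET mPGCLCs), with 0 of 6 tested arms called in any comparison by either library size. The erythroid Mir451a had 1 count in all 8 libraries together, and Mir144-3p, also erythroid, had 71 counts in E13.5 replicate 2 and 0 in the other 7.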

How the data were processed

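Small RNA was sequenced from 3 mPGC groups and SGET mPGCLCs, 2 libraries each. After removing adapters and their random bases (cutadapt 3.2), the authors aligned reads to GRCm38 (STAR 2.5.3a), kept 1 random place for each multimapping read, and deposited a raw count for every distinct sequence. PCR copies were not removed, so 95% Wilson intervals and the limit of 3 counts cover counting error only.

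With Python 3.11.15, sequences of 20 to 24 nt were matched exactly to sense GENCODE M21 miRNA transcripts. A feature is the set of genes and the arm matched, the arm being 5p where the middle of the match lies before the middle of the hairpin. No member sequence was shared with another miRNA gene, and 0 antisense reads were found. In R 4.3.3, edgeR 4.0.16 filtered the arms by its defaults and tested 488 by quasi-likelihood in a single model of the 8 libraries, with mapping reads as library sizes and Benjamini-Hochberg adjustment over all arms (threshold 0.05). SEs follow from the F statistic. DESeq2 1.42.0 served as an alternative. In simulated data for SGET mPGCLCs against E12.5 with log2 changes of 2, edgeR recovered 96.1% of changed arms at a dispersion of 0.05 and 0% at 2.27, the common dispersion of the real arms, where DESeq2 recovered 4.86% and called 2.6% of unchanged arms.

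All member arms are named. Outside the cluster the 5 arms of highest correlation are named, on log2 of RPM plus 1, and up to 4 genes of each list. Mir486a was not found under that name. The members and lists were chosen with earlier results of these data known. Deviations of same-numbered libraries correlated at -0.064 to 0.119 over the arms, so the numbers were not taken as pairs.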

Additional observations from a re-analysis of the deposited data

How the results depend on the processing

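The cluster level kept its direction under each alternative in the comparisons of E13.5 with E12.5 and of SGET mPGCLCs with either stage. The E15.5 comparisons did not. The ratio of E15.5 to E12.5 was 3.17 over miRNA-matching reads and 1.52 over reads of 20 to 24 nt, and that of E15.5 to E13.5, as the geometric mean of same-numbered libraries (replicate block), was 0.994. Leaving out one library gave 0.293 to 0.445 for E13.5 to E12.5, 0.648 to 1.49 for E15.5 to E13.5, 0.229 to 0.528 for E15.5 to E12.5, 9.73 to 14.8 for SGET mPGCLCs to E12.5 and 28.3 to 38.9 for SGET mPGCLCs to E13.5. Exact permutation p-values of 2 libraries against 2 cannot pass 0.05 and show no stability.

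With DESeq2 2 members were called higher for E15.5 against E13.5 (beside 3.4% of all arms), 1 for E15.5 against E12.5 (8.62%), 1 for SGET mPGCLCs against E12.5 (8.53%) and 2 for SGET mPGCLCs against E13.5 (5.99%). For SGET mPGCLCs against E12.5, 1 member in place of 0 was called with miRNA-matching reads as library size, with TMM, with 18 to 26 nt, with the 2 groups alone and with the replicate block, beside 2.74%, 2.46%, 2.14%, 2.56% and 3.69% of all arms called higher. For E13.5 against E12.5, E15.5 against E13.5, E15.5 against E12.5, and SGET mPGCLCs against E12.5 and E13.5, the share of all arms called in either direction was 0.978%, 0.391%, 6.07%, 10.6% and 12.3% with miRNA-matching reads, 0.615%, 0.205%, 3.48%, 11.3% and, as 2.87% higher and 9.63% lower, a similar share with TMM, and 1.83%, 4.13%, 10.2%, 24.4% and 22.4% with DESeq2. Leaving out one library gave log2 fold changes of miR-302b-3p from 3.60 to 4.36 for SGET mPGCLCs against E12.5 and from 5.10 to 5.22 against E13.5. Whether it was called depended on the library left out. A library left out leaves 1 in its group, assumed to vary like the others. Except where the denominator or the number of libraries changed by construction, the cause was not tested.

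Signs of single members also turned, and the reversal of miR-302b-3p for E15.5 against E12.5 passed the threshold in DESeq2 (adjusted p = 0.033). For E15.5 against E13.5 the log2 fold changes with miRNA-matching reads, TMM and DESeq2 were 2.0, 2.27 and 2.66 for miR-302a-3p and 3.26, 3.60 and 4.00 for miR-302d-5p. For E15.5 against E12.5 they were 1.35, 1.59 and 2.06 for miR-302a-3p, 1.99, 2.22 and 2.62 for miR-302b-3p, 0.78, 1.09 and 1.46 for miR-302d-3p, and 2.89, 3.23 and 3.65 for miR-302d-5p. With the replicate block, miR-302a-5p was 0.39 for E13.5 against E12.5 and -0.14 for E15.5 against E13.5. No other member reversed with the block.

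Leaving out one library, log2 fold changes for E13.5 against E12.5 ran from -2.09 to 1.19 for miR-302a-3p, -4.89 to 7.97 for miR-302a-5p and -1.13 to 0.36 for miR-302d-5p. For E15.5 against E13.5 they ran from -2.05 to 0.19 for miR-302a-3p, -7.77 to 5.28 for miR-302a-5p, -0.19 to 0.43 for miR-302b-3p, -0.87 to 0.79 for miR-302d-3p and -2.07 to 0.91 for miR-302d-5p. For E15.5 against E12.5 they ran from -8.07 to 8.67 for miR-302a-5p and -2.27 to 0.58 for miR-302d-5p. For miR-302d-5p they ran from -0.32 to 3.80 in SGET mPGCLCs against E12.5 and from -0.12 to 4.01 against E13.5.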
